A study of Mus musculus with 7 samples.

Results

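Genes of fatty acid and triglyceride metabolism were examined in group 2 innate lymphoid cells (ILC2s) that lacked the transcriptional repressor GFI1. ILC2s are innate lymphocytes known for IL-5 and IL-13, and they carry no antigen receptor. The set holds 43 genes, listed by name for their roles in the pathway, with earlier results of these data known. They were found on the arrays through the accession of each probe. Of these, 42 could be tested among 25368 genes tested in all. Of the 25368, 16700 had a gene symbol. The others were probe targets without a symbol, each counted as a gene, and every share over all tested genes includes them. Gpam, which encodes a mitochondrial enzyme that starts triglyceride assembly, was left out because its 1 probe was above background on only 2 of the 7 arrays.

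The knockout group came from mice homozygous for Gfi1GFP, an allele that carries a GFP cassette in the Gfi1 locus and acts as a loss-of-function allele. The wild-type group came from Gfi1+/+ mice. All mice received IL-25 each day for 4 days, and Lin-, Sca-1+, ICOS+, CD127+, c-Kit+ cells were sorted from mesenteric lymph nodes on day 5. Both groups were then grown for 6 days with IL-2 and IL-25, each at 50 ng/ml, plus IL-7 at 10 ng/ml, so the values describe cytokine-expanded cells and not cells fresh from tissue. Each of the 3 knockout samples pooled 6 mice and each of the 4 wild-type samples pooled 3 mice. The labels give no age or sex of the mice. Every sample was hybridised in the red channel of a two-colour Agilent array, with a commercial mouse reference RNA in the green channel. Each value below is therefore a log2 ratio of ILC2 sample over reference RNA, and each difference is knockout minus wild type on the log2 scale. A gene is called where limma's adjusted p (Benjamini-Hochberg over all tested genes) was under 0.05.

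Fatty acids are built in the cytosol from acetyl-CoA by ATP citrate lyase, acetyl-CoA carboxylase and fatty acid synthase, then lengthened by elongases and given double bonds by desaturases. Acyl-CoA synthetases activate fatty acids, which are joined to glycerol step by step to form triglyceride, stored in lipid droplets, released again by lipases, or burned in mitochondria. The transcription factor encoded by Srebf1 switches on many of the synthesis genes, whereas PPAR factors act on genes of storage, uptake and oxidation. In mouse lungs, ILC2s are known to take up fatty acids from outside and to hold them in droplets before use.

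The arrays and labels were checked first. Gfi1 read 4.29, 4.26 and 4.29 on the knockout arrays, against 1.90, 1.88, 2.36 and 1.96 on the wild-type arrays, a difference of 2.26 (adjusted p = 1.63e-05, limma). Gfi1 was thus higher on the arrays labelled knockout. With the inserted cassette the promoter still works, and where the probe lies relative to the cassette is not known here, so this probe cannot check the labels, which alone give the directions that follow. The share of probes well above background ran from 67.4% to 80.9% over the arrays. The correlation of log ratios was 0.969 to 0.98 among knockout arrays, 0.979 to 0.989 among wild-type arrays and 0.942 to 0.969 between the groups, across genes, which are not independent replicates. Knockout array 3 had a negative-control spread in the red channel of 6.43, outside the scanner's accepted range, against 3.1 to 4.8 on the other arrays. Of the ILC2 markers Gata3, Rora, Il7r, Icos, Kit, Ly6a, Il1rl1, Il17rb, Klrg1, Il5, Il13, Il2ra and Thy1, all 13 passed the filter on dim probes, and 4 were called (30.8%, compared with 7.51% of all tested genes). Gata3, Ly6a and Il1rl1 were lower by 0.93, 0.72 and 1.89 in the knockout, and Il17rb was 1.85 higher. The mean log2 ratio of the 13 markers was 4.78 to 4.92 on knockout arrays and 4.95 to 5.25 on wild-type arrays, without overlap.

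The desaturase genes Scd1 and Scd2, the regulator Srebf1, the acyl-CoA synthetase genes Acsl3 and Acsl4, and the storage and lipolysis genes Dgat1, Plin2 and Mgll were lower in knockout ILC2s, whereas Gpat3, Fabp4 and Acacb were higher. Of the 42 genes, 11 were called (26.2%), compared with 7.51% of all tested genes. Among genes above background on all 7 arrays, as all 42 were, the share was 8.18%. Because the set was chosen with earlier results of these data known, its shares describe the set and do not test it. Lower calls numbered 8 (19%, against 4.23% of all tested genes) and higher calls 3 (7.14%, against 3.27%). The median difference over the 42 genes was -0.10, compared with -0.01 over all tested genes, and 28 differences were negative and 14 positive. In 17 of the 42 genes (40.5%) all 3 knockout arrays lay on one side of all 4 wild-type arrays, which held for 18.3% of all tested genes. These 17 comprised the 11 called genes and 6 others, Ppara, Elovl6, Fads1, Fads2 and Cpt2 on the lower side and Fabp5 on the higher side. In these bulk samples, fewer cells of a type and less RNA per cell cannot be told apart. With slide (arrays that share a scan time) as a block, 7 of the 11 genes stayed called, when 1.88% of all tested genes were called. The 4 others (Acacb, Acsl3, Dgat1 and Plin2) are given with that value where they are described. Without knockout array 3 all 11 stayed called and Fads1 was added, and without both that array and wild-type array 4 all but Plin2 stayed called.

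**Figure D1:**
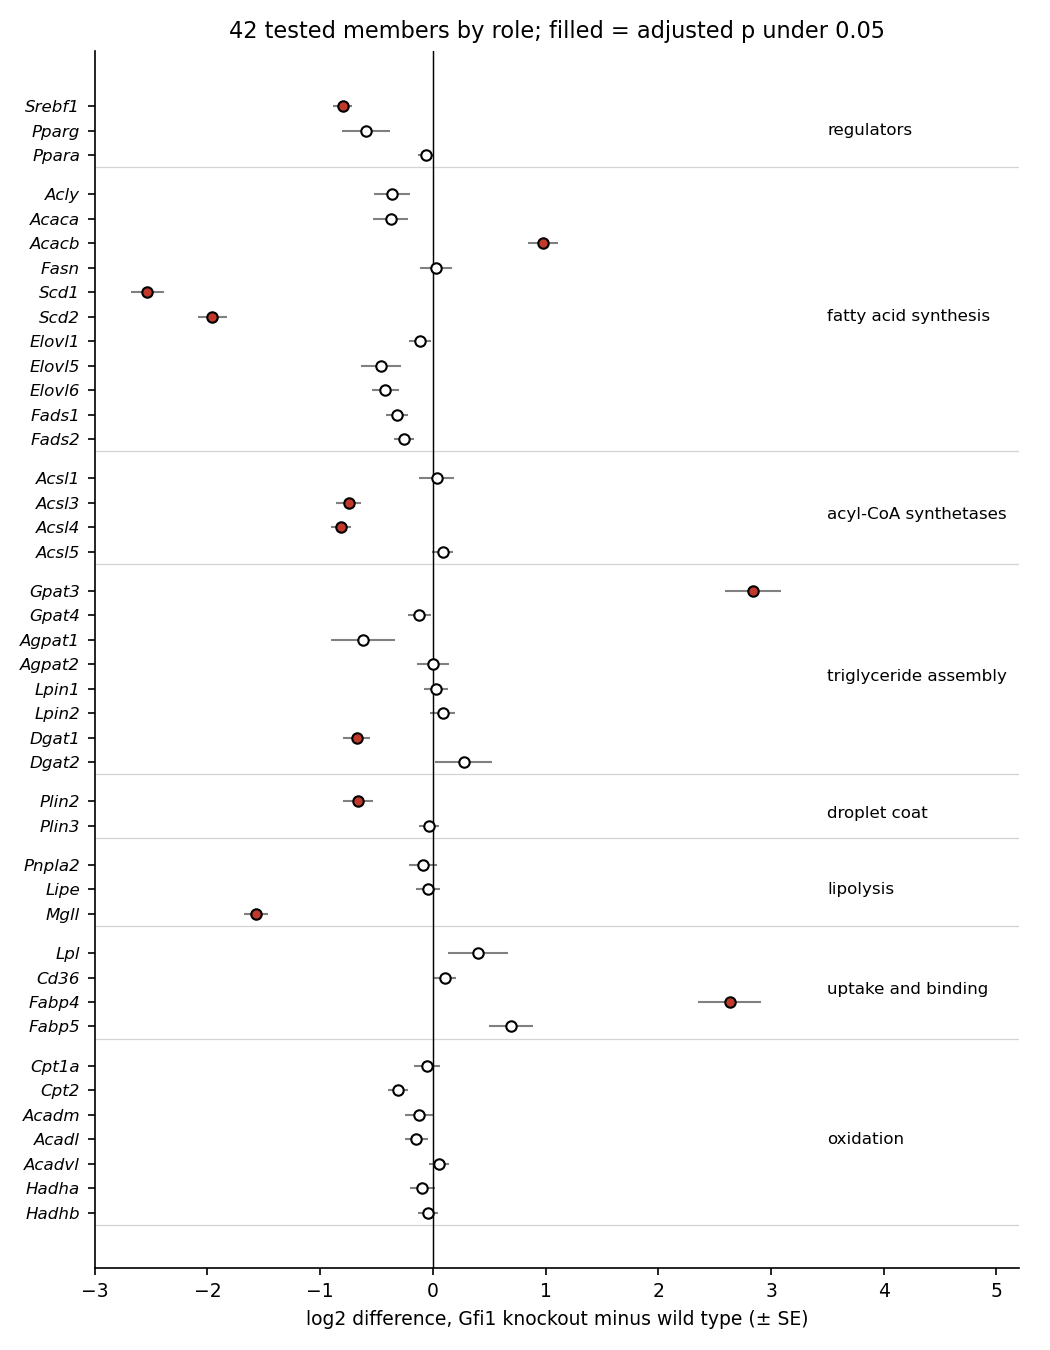
Log2 difference of each of the 42 tested genes (x axis, Gfi1 knockout minus wild type, 3 and 4 arrays), grouped by role from regulators at the top to oxidation at the bottom. Points are estimates with ± 1 SE from limma, and filled points are the 11 called genes. Scd1, Scd2 and Mgll lie farthest to the left and Gpat3 and Fabp4 farthest to the right, and all 7 oxidation genes lie between -0.31 and 0.06.

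Among the 3 regulators, Srebf1 was called and the PPAR genes were not (33.3% called, compared with 7.51% of all tested genes). Srebf1, which encodes the transcription factor SREBP-1, had log2 ratios of 0.90, 0.98 and 0.80 on the knockout arrays, against 1.58, 1.76, 1.75 and 1.68 on the wild-type arrays. The groups did not overlap, and the arrays within each group lay close together. The difference was -0.80 ± 0.08 (SE), or 1.74-fold lower in the knockout (adjusted p = 0.000636, limma). It was -0.78 within slide 1, -0.69 within slide 2 and -0.73 when blocked on slide (adjusted p = 0.0239). Pparg, which encodes the factor that drives fat storage, had a difference of -0.59 ± 0.21 (adjusted p = 0.146). Its knockout arrays read 2.31, 2.33 and 1.61, against 3.01, 2.72, 2.25 and 2.72 on the wild-type arrays, so that the groups overlapped and knockout array 3 lay below the other knockout arrays. Ppara, a factor for oxidation genes in liver, had a difference of -0.06 ± 0.07 (adjusted p = 0.72).

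The stearoyl-CoA desaturase genes had the largest differences among the 11 synthesis genes. Scd1 encodes a stearoyl-CoA desaturase, which places a double bond in saturated acyl chains. Its log2 ratios were -1.17, -0.92 and -1.19 on the knockout arrays, against 1.41, 1.75, 1.52 and 1.07 on the wild-type arrays. Every knockout array lay below the reference RNA and every wild-type array above it. Scd1 was 5.79-fold lower in the knockout (difference -2.53 ± 0.15, adjusted p = 2.776e-05, limma), with -2.24 within slide 1 and -2.47 within slide 2. When blocked on slide it was -2.37 (adjusted p = 0.00105).

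Scd2, a second stearoyl-CoA desaturase, had log2 ratios of -2.27, -2.59 and -2.38 on the knockout arrays, against -0.67, -0.48, -0.19 and -0.49 on the wild-type arrays. The groups were apart by more than the spread within either. Scd2 was 3.88-fold lower in the knockout (difference -1.96 ± 0.12, adjusted p = 4.345e-05), with -1.78 and -1.81 within slides 1 and 2 and -1.80 when blocked on slide (adjusted p = 0.00191). The green channel for Scd2, which held the same reference RNA on every array, was 0.31 higher on the knockout arrays. In the red channel alone Scd2 was 3.13-fold lower, a difference of -1.65. The related desaturase genes Scd3 and Scd4 were not called, with differences of -0.25 (adjusted p = 0.188) and -0.03 (adjusted p = 0.909). Scd1 to Scd4 are close copies, and the probe sequences were not used here, so cross-hybridisation among them was not tested.

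Acacb, which encodes the acetyl-CoA carboxylase at the mitochondrial membrane whose product restrains fatty acid entry, was the synthesis gene that rose. It read -2.73, -2.36 and -2.52 on the knockout arrays, against -3.75, -3.61, -3.40 and -3.28 on the wild-type arrays. All knockout arrays lay above all wild-type arrays. Acacb was 1.97-fold higher (difference 0.98 ± 0.13, adjusted p = 0.00234), with 0.56 within slide 1 and 1.31 within slide 2. Blocking on slide gave 0.99, no longer called (adjusted p = 0.0522). A second Acacb probe showed a difference of 0.15, with an adjusted p over all probes of 0.414, and missed the threshold. With the mean of its probes Acacb stood at 0.56 and stayed called.

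The enzymes that build the carbon chain were not called. Acly, which makes cytosolic acetyl-CoA, had a difference of -0.36 ± 0.16 (adjusted p = 0.243), and its second probe stood at 0.01. Acaca, the cytosolic acetyl-CoA carboxylase gene, had a difference of -0.37 ± 0.16 (adjusted p = 0.226). Knockout array 3 read lowest for both genes, at 0.17 for Acly and -1.27 for Acaca. Fasn, the fatty acid synthase gene, had a difference of 0.03 ± 0.14 (adjusted p = 0.947), and its groups overlapped.

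None of the 3 elongase genes was called. Elovl6, which lengthens palmitate, read 0.37, 0.71 and 0.55 on the knockout arrays, against 0.81, 1.12, 1.12 and 0.81 on the wild-type arrays (difference -0.42 ± 0.12, adjusted p = 0.0716). The groups did not overlap, but the test did not pass. Elovl5, an elongase of polyunsaturated chains, had a difference of -0.46 ± 0.18 (adjusted p = 0.183) and Elovl1, an elongase of very long chains, of -0.11 ± 0.10 (adjusted p = 0.608). The desaturases of polyunsaturated fatty acids stood at -0.32 ± 0.10 for Fads1 (adjusted p = 0.0861) and -0.26 ± 0.09 for Fads2 (adjusted p = 0.136). Their knockout arrays lay below their wild-type arrays without overlap, and without knockout array 3 Fads1 stood at -0.41 and was called (adjusted p = 0.0289). Fads2 was dim, with log2 red-channel levels of 7.38 to 7.94. The size of its difference depends on the background handling, and it was -0.48 with the scanner ratio, also not called. Over all 11 synthesis genes, 2 were lower (18.2%, against 4.23% of all tested genes) and 1 was higher (9.09%, against 3.27%). The other 8 were not called, and the median difference over the 11 genes was -0.36.

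Acyl-CoA synthetases, which activate long-chain fatty acids for further use, split into 2 called and 2 uncalled genes. The share called was 50%, compared with 7.51% of all tested genes. Acsl4, which prefers arachidonate, read -0.12, -0.37 and -0.38 on the knockout arrays, against 0.57, 0.48, 0.51 and 0.53 on the wild-type arrays. Its wild-type arrays spanned a narrow range above the reference RNA, and its knockout arrays all lay below it. Acsl4 was 1.76-fold lower (difference -0.81 ± 0.09, adjusted p = 0.000739), with -0.65 and -0.95 within slides 1 and 2 and -0.82 when blocked on slide (adjusted p = 0.0187).

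Acsl3, found on the endoplasmic reticulum and on growing lipid droplets, read -1.16, -1.49 and -1.51 on the knockout arrays, against -0.50, -0.66, -0.62 and -0.77 on the wild-type arrays. The groups did not overlap, and knockout array 1 was the highest of the knockout arrays. Acsl3 was 1.68-fold lower (difference -0.75 ± 0.11, adjusted p = 0.00374). Within slide 1 the difference was -0.38 and within slide 2 it was -1.0. Blocking on slide gave -0.73, no longer called (adjusted p = 0.0709). Acsl1 and Acsl5 had differences of 0.03 ± 0.16 (adjusted p = 0.945) and 0.09 ± 0.09 (adjusted p = 0.691).

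**Figure D2:**
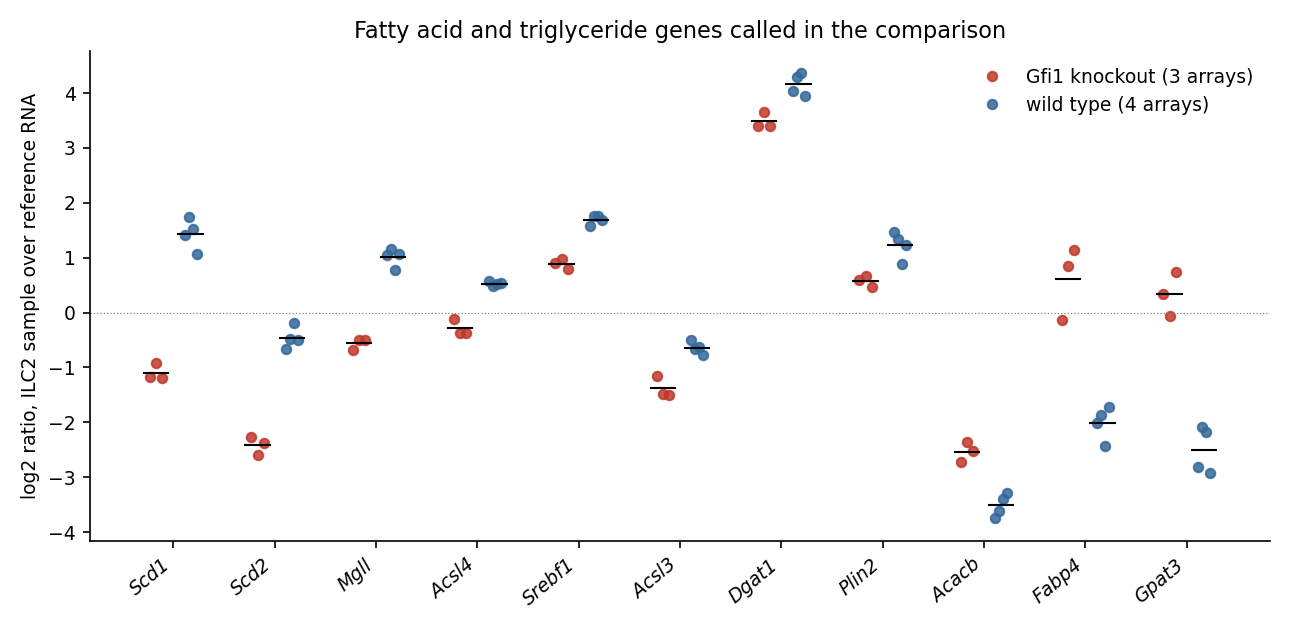
Log2 ratio of ILC2 sample over reference RNA (y axis) for the 11 called genes of the set, ordered by their difference. Each point is 1 array, with Gfi1 knockout (3 arrays) left of wild type (4 arrays), and bars are group means. The groups do not overlap in any of these genes; Scd1 lies between -1.19 and -0.92 in the knockout and between 1.07 and 1.75 in wild type.

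Triglyceride assembly held a large rise and a smaller fall. Of its 8 tested genes 2 were called (25%, compared with 7.51% of all tested genes). Gpat3 encodes a glycerol-3-phosphate acyltransferase of the endoplasmic reticulum, which adds the first acyl chain to glycerol-3-phosphate. Its log2 ratios were 0.34, -0.06 and 0.75 on the knockout arrays, against -2.82, -2.08, -2.17 and -2.92 on the wild-type arrays. The gap between the groups exceeded the whole spread within either group. Gpat3 was 7.16-fold higher in the knockout (difference 2.84 ± 0.25, adjusted p = 0.000223), with 3.26 and 3.16 within slides 1 and 2 and 3.204 when blocked on slide (adjusted p = 0.00169). Gpat4, which encodes an enzyme of the same kind, stood at -0.12 ± 0.10 (adjusted p = 0.6).

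Dgat1 and Dgat2 encode unrelated enzymes that add the last acyl chain. Dgat1 read 3.39, 3.66 and 3.40 on the knockout arrays, against 4.04, 4.29, 4.36 and 3.95 on the wild-type arrays. All arrays of both groups lay well above the reference RNA, with the knockout arrays lower and no overlap. Dgat1 was 1.60-fold lower (difference -0.68 ± 0.12, adjusted p = 0.00977), with -0.56 and -0.51 within slides 1 and 2. Blocking on slide gave -0.53, no longer called (adjusted p = 0.0879). Dgat2 read 0.76, 0.83 and 1.12 on the knockout arrays, against 0.12, 0.27, 1.30 and 0.82 on the wild-type arrays. The groups overlapped, with the wider spread in wild type, and the difference of 0.27 ± 0.25 was not called (adjusted p = 0.642).

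The middle steps showed no called gene. Agpat1, which adds the second acyl chain, had a difference of -0.62 ± 0.28 (adjusted p = 0.272). Its knockout arrays read -0.57, -0.88 and -1.99, and its wild-type arrays lay between -0.76 and -0.38, so that knockout array 3 stood apart from the others. Agpat2 stood at 0.00 ± 0.14 (adjusted p = 0.9997). The phosphatidate phosphatase genes Lpin1 and Lpin2 stood at 0.03 ± 0.11 (adjusted p = 0.936) and 0.09 ± 0.11 (adjusted p = 0.76). Lpin1 was dim, with log2 red-channel levels of 7.14 to 7.63, so a change in it could be missed.

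On the droplet surface, Plin2, a coat protein of lipid droplets in most cells, read 0.59, 0.67 and 0.47 on the knockout arrays, against 1.47, 1.34, 0.89 and 1.24 on the wild-type arrays. Wild-type array 3 was the lowest of its group and still lay above all knockout arrays. Plin2 was 1.58-fold lower (difference -0.66 ± 0.13, adjusted p = 0.0164), with -0.65 and -0.90 within slides 1 and 2. The block on slide ended this call (-0.79, adjusted p = 0.0698), as did leaving out wild-type array 2 (-0.63, adjusted p = 0.0531). Plin3, a coat protein that also binds droplets, stood at -0.03 ± 0.09 (adjusted p = 0.902).

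Triglyceride is broken down in sequence by ATGL (Pnpla2), hormone-sensitive lipase (Lipe) and monoacylglycerol lipase (Mgll). Of these 3 genes, that of the last step was called (33.3%, compared with 7.51% of all tested genes). Mgll read -0.68, -0.50 and -0.49 on the knockout arrays, against 1.04, 1.15, 0.77 and 1.06 on the wild-type arrays. All knockout arrays lay below the reference RNA and all wild-type arrays above it. Mgll was 2.96-fold lower (difference -1.57 ± 0.11, adjusted p = 6.441e-05), with -1.75 and -1.54 within slides 1 and 2 and -1.63 when blocked on slide (adjusted p = 0.00359). In the red channel alone it was 3.43-fold lower. The log2 red-channel level of Mgll was dim on the knockout arrays, at 6.79 to 7.05, against 8.57 to 8.86 on the wild-type arrays. With the scanner ratio its difference was -2.65. Pnpla2 and Lipe stood at -0.08 ± 0.12 (adjusted p = 0.789) and -0.04 ± 0.11 (adjusted p = 0.892). Lipe was dim on all arrays, with log2 red-channel levels of 6.66 to 7.03, so a change in it could be missed.

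Mgll had 4 tested probes, which did not all show the same difference. A second probe stood at -1.48 (adjusted p over probes 0.0011), another at -0.51 (adjusted p over probes 0.0065), whereas the fourth, above background on 4 arrays, stood at 0.03 and missed the threshold. With the mean of its probes Mgll stood at -0.88 and stayed called. Of the 42 genes, 10 had several tested probes. The gaps between probes were widest for Mgll and Acacb, and Lpl had 0.40 on the probe used and -0.02 on the other.

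**Figure D3:**
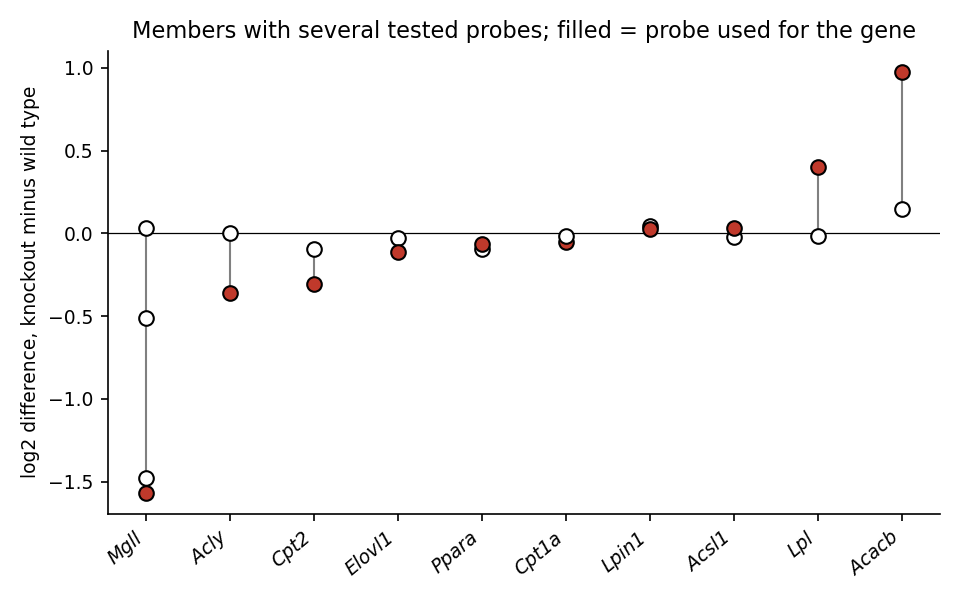
Log2 difference (y axis, knockout minus wild type) of every tested probe of the 10 genes with several tested probes. Filled points are the probes that stand for the gene, chosen for the highest mean red-channel signal, and open points are the others. The Mgll probes range from -1.57 to 0.03, and those of Acacb stand at 0.98 and 0.15.

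The 4 uptake and binding genes had positive differences on the probes used, and 1 was called (25%, compared with 7.51% of all tested genes). Of 8 tested uptake and binding genes outside the set, 4 differences were positive and 4 negative. Fabp4 encodes a cytosolic fatty acid-binding protein known from adipocytes, macrophages and endothelial cells. Its log2 ratios were -0.14, 0.85 and 1.14 on the knockout arrays, against -2.02, -1.87, -2.43 and -1.73 on the wild-type arrays. The knockout arrays were spread over more than 1 log2 unit, with array 1 lowest, and all lay above all wild-type arrays. Its log2 red-channel level was dim in wild type, at 6.47 to 7.34, against 8.99 to 10.15 in the knockout. The size of the difference therefore depends on the background handling, and it was 3.57 with the scanner ratio. Fabp4 was 6.20-fold higher (difference 2.63 ± 0.28, adjusted p = 0.000688), with 1.59 within slide 1, 3.02 within slide 2 and 2.41 when blocked on slide (adjusted p = 0.0185).

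Markers of the other cell types in which Fabp4 is known were measured beside it, and their part in the Fabp4 difference was not tested. Of the adipocyte markers Adipoq, Adipor2, Plin1, Cidec, Lep, Retn, Cfd and Car3, 5 of 8 could be tested and none was called. Adipoq, Lep and Cfd were above background on 0 arrays, and the mean log2 ratio of the tested ones was -0.19 to -0.05 on knockout arrays and -0.12 to 0.00 on wild-type arrays. Adipor2 was bright, with log2 red-channel levels of 13.45 to 14.13, whereas Plin1, Cidec, Retn and Car3 were dim, at 6.30 to 7.96. The mean therefore mixes bright and dim genes and does not measure adipocyte content. Of 10 macrophage markers, 6 could be tested and none was called, with -0.94 to -0.79 on knockout arrays and -1.18 to -0.83 on wild-type arrays. The largest macrophage difference was 0.63 for Adgre1 (adjusted p = 0.144), while Mertk was above background on 0 arrays. Of 7 endothelial markers, 4 could be tested and none was called. Their mean was 0.31 to 0.41 on knockout arrays and 0.43 to 0.67 on wild-type arrays, so these groups did not overlap. Tie1 and Tek were above background on 0 arrays.

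Markers of lymphocytes and granulocytes were measured in the same way. None of 8 T cell or 7 B cell markers was called. The T cell mean was 0.37 to 0.79 on knockout arrays and 0.20 to 0.63 on wild-type arrays, and Cd3d had a difference of 1.08 (adjusted p = 0.222). The B cell mean was -1.42 to -1.26 on knockout arrays and -1.44 to -1.30 on wild-type arrays. Of 8 mast cell and basophil markers, 4 could be tested, and Cpa3 and Hdc were lower in the knockout by 0.51 and 0.36 (adjusted p = 0.0402 and 0.0189). The share called was 50% of the 4 tested markers, compared with 7.51% of all tested genes. The mean of these 4 was -0.11 to -0.10 on knockout arrays and 0.06 to 0.17 on wild-type arrays, so the groups did not overlap, and its part in the lipid gene differences was not tested. Cpa3, Hdc and Cma1 were dim, with log2 red-channel levels of 6.645 to 8.16, 6.84 to 7.58 and 6.23 to 6.765. The mean therefore does not measure mast cell or basophil content. Ms4a2 and Fcer1a were above background on 0 arrays.

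Fabp5, the fatty acid-binding protein gene of many lymphocytes, read 1.45, 1.73 and 2.06 on the knockout arrays, against 1.30, 0.90, 0.65 and 1.36 on the wild-type arrays. The groups did not overlap, but the difference of 0.70 ± 0.19 was not called (adjusted p = 0.0658) and was 0.09 within slide 1 and 0.59 within slide 2. Without knockout array 1 the Fabp5 difference was 0.84 and was called (adjusted p = 0.0424). Knockout array 1 read lowest of its group for Fabp5, so leaving it out was bound to raise the difference. Lpl, which releases fatty acids from lipoproteins, stood at 0.40 ± 0.27 (adjusted p = 0.49), and without wild-type array 1 at 0.68, which was called (adjusted p = 0.0207). Wild-type array 1 read highest of its group for Lpl, so leaving it out was bound to raise the difference. Cd36, a fatty acid receptor and transporter, stood at 0.11 ± 0.10 (adjusted p = 0.628). Lpl and Cd36 were dim on all arrays, with log2 red-channel levels of 6.52 to 7.51 and 6.55 to 6.97, so changes in them could be missed.

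The 7 oxidation genes of the set had no call (0%, compared with 7.51% of all tested genes). Calls among further oxidation genes are given below. The mitochondrial import genes stood at -0.05 ± 0.12 for Cpt1a (adjusted p = 0.867) and -0.31 ± 0.09 for Cpt2 (adjusted p = 0.0684). Cpt2 read -1.17, -1.08 and -1.30 on the knockout arrays, against -0.90, -0.75, -0.93 and -0.92 on the wild-type arrays, and its groups did not overlap. A second Cpt2 probe, whose groups overlapped, stood at -0.09 (adjusted p over probes 0.709, limma). The acyl-CoA dehydrogenase genes, which take the first step of each oxidation round, stood at -0.12 ± 0.13 for Acadm, -0.14 ± 0.10 for Acadl and 0.06 ± 0.09 for Acadvl. The subunit genes of the trifunctional protein stood at -0.09 ± 0.11 for Hadha and -0.04 ± 0.09 for Hadhb. The adjusted p of these 5 genes ran from 0.523 for Acadl to 0.857 for Hadhb, and the median over the 7 oxidation genes was -0.09.

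Because the ratios could also move through the green channel, the channels were compared one at a time. The red channel, which held the ILC2 sample, carried the differences of the called genes. The green channel differed by 0.31 for Scd2, -0.21 for Mgll and -0.15 for Dgat1, and by less than 0.10 for the other 8 called genes. In the red channel alone the median over the 42 genes was -0.15, and all 11 genes were called.

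**Figure D4:**
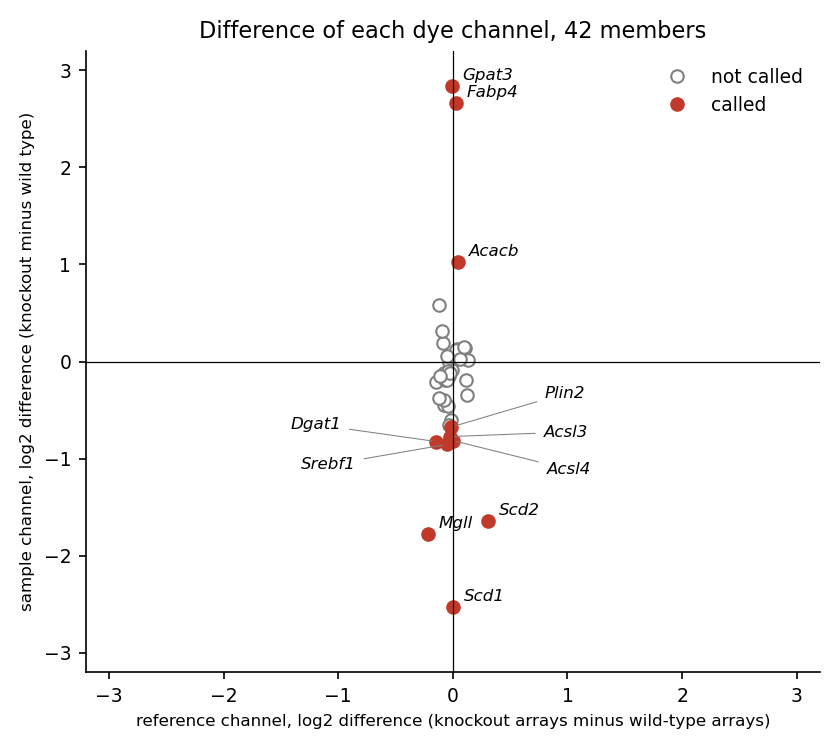
Difference of the red channel (y axis, log2, knockout minus wild type) against the difference of the green channel (x axis, log2, knockout arrays minus wild-type arrays) for the 42 tested genes. Filled points are the 11 called genes. They are spread along the y axis, from -2.53 for Scd1 to 2.83 for Gpat3, and lie within 0.31 of 0 on the x axis.

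Sequence near the start is shown for 6 of the 11 called genes, so that some that fell and some that rose can be compared by their letters. Scd1, Scd2, Dgat1 and Fabp4 had no entry in the table used. Windows of 250 bases before to 50 bases after the annotated start were taken from RefSeq, build GRCm38.p6, and 34 of the 43 genes matched the table. Capitals mark a CCAAT box (ATTGG on the other strand) or an E-box, CACGTG. Of the genes below, Srebf1, Acsl3, Plin2 and Mgll were lower and Gpat3 and Acacb higher in the knockout. Srebf1 has 3 starts in the table, of which those with a motif are shown, and Mgll has 2, of which the first is shown. Gpat3 is shown although its window held no motif, and the Acsl4 window, which held none either, is not shown.
Srebf1, chr11:60222532-60222831, minus strand: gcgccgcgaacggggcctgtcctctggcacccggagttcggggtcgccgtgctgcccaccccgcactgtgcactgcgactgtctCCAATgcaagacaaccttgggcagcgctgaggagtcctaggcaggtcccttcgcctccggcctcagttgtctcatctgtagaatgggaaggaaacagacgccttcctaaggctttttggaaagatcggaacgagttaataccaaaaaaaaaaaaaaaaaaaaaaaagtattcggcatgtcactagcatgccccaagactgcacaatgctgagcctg
Srebf1, chr11:60210422-60210721, minus strand: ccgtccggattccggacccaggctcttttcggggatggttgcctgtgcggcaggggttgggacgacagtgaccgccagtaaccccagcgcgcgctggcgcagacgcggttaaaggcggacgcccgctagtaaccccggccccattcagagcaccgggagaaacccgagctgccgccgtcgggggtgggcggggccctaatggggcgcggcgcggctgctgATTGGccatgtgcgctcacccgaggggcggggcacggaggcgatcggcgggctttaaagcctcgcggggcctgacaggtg
Acsl3, chr1:78657575-78657874, plus strand: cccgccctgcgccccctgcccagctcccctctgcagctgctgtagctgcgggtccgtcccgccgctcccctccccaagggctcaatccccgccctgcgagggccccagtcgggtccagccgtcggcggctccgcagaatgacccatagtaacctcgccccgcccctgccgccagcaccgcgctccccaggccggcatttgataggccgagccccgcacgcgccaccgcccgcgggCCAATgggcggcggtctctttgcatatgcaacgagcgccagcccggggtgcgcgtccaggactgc
Plin2, chr4:86670010-86670309, minus strand: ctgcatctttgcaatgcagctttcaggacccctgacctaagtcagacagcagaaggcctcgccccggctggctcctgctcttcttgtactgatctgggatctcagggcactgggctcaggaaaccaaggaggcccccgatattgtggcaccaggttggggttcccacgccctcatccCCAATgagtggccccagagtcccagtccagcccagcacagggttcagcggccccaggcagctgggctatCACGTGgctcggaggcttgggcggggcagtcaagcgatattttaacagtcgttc
Mgll, chr6:88724162-88724461, plus strand: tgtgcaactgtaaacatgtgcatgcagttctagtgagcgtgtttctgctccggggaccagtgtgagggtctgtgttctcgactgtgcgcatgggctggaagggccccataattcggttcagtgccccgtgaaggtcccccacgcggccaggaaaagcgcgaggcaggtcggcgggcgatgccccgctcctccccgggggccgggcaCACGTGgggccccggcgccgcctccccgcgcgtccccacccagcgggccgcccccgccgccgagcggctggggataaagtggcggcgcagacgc
Gpat3, chr5:100845979-100846278, plus strand: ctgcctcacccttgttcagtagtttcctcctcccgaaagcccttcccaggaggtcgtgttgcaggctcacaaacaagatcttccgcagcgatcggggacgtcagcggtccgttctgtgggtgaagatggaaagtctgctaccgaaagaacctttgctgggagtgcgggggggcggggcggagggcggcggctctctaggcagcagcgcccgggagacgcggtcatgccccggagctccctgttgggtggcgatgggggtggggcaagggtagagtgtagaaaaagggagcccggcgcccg
Acacb, chr5:114165268-114165567, plus strand: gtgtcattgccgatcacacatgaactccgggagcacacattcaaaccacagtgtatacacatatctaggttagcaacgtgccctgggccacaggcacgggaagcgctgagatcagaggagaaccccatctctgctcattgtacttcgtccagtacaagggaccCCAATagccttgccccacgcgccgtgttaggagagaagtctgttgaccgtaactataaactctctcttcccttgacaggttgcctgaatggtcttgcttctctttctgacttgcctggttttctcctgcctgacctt

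The motifs were searched on both strands. CCAAT, the box bound by NF-Y, was found in 17 of the 34 genes with a window (50%), compared with 41.1% of all genes in the table. Among the 7 called genes with a window, it was found in 4, namely Srebf1, Acsl3, Plin2 and Acacb, in both directions of change. CACGTG, the E-box, was found in 5 of 34 (14.7%, compared with 8.09% of all genes), and among the called genes in Plin2, 4 bases before the start, and Mgll, 44 bases before it. The SREBP element, searched as TCACNCCAC, was found in 1 of 34 (2.94%, compared with 1.44%), the uncalled gene Acsl1. The GFI1 core, searched as AATCANNGC, was found in 0 of 34, compared with 3.78% of all genes. These letters describe a 300-base window only, and no match in it says nothing of the factors at these genes.

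Further genes of the pathway outside the set were taken from a list of 101 genes, of which 92 could be tested. Of these, 11 were called (12%, compared with 7.51% of all tested genes), 10 lower and 1 higher. Their median difference was -0.05. This list too was chosen with earlier results of these data known.

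Of 12 further regulators 2 were lower (16.7%, Insig1 and Nr1h2), and of 13 further synthesis genes 1 was (7.69%, Acss2). The share over all tested genes was 4.23%. None of either list was higher. Insig1, which holds the SREBP escort protein in the endoplasmic reticulum and is itself an SREBP target, read -0.18, -0.54 and -0.24 on the knockout arrays, against 0.59, 0.55, 0.77 and 0.37 on the wild-type arrays. Its groups were apart with no overlap, and it was 1.85-fold lower (adjusted p = 0.00242). Acss2, which makes acetyl-CoA from acetate, read -2.65, -2.49 and -2.79 on the knockout arrays, against -1.85, -1.47, -1.16 and -1.41 on the wild-type arrays. It was 2.25-fold lower (difference -1.17, adjusted p = 0.00186), but a second Acss2 probe stood at -0.19 and missed the threshold (adjusted p over probes 0.218). Nr1h2, which encodes the sterol receptor LXR-beta that acts on Srebf1, was 0.41 lower (adjusted p = 0.0443). Scap, Insig2, Mbtps1 and Mbtps2, whose products carry, hold back or cut the SREBP factors, were not called, with differences of -0.03, -0.25, -0.42 and -0.02.

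Of the droplet genes, Hilpda, a hypoxia-induced inhibitor of ATGL, read -0.61, -0.54 and -0.93 on the knockout arrays, against 0.65, 1.49, 1.08 and 0.82 on the wild-type arrays. Every knockout array lay below the reference RNA and every wild-type array above it. Hilpda was 3.26-fold lower (difference -1.70 ± 0.19, adjusted p = 0.000807), with -1.43 and -1.39 within slides 1 and 2. A second Hilpda probe stood at -1.76. Abhd6, another monoacylglycerol lipase, was the gene that rose, with 0.38, 0.61 and 0.43 on the knockout arrays, against -0.16, 0.01, -0.10 and 0.03 on the wild-type arrays. It was 1.44-fold higher (difference 0.53, adjusted p = 0.00766). A second Abhd6 probe, whose groups overlapped, stood at 0.21 and missed the threshold (adjusted p over probes 0.64).

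Vldlr, a lipoprotein receptor gene, read -6.17, -6.17 and -6.91 on the knockout arrays, against -5.47, -4.39, -4.96 and -5.30 on the wild-type arrays. It was above background on 2 of the 3 knockout arrays and on all 4 wild-type arrays, and the wild-type arrays alone carried it past the filter on dim probes. Its difference of -1.39 is therefore given as a description, although it is counted among the 10 lower genes. Agpat4, an acyltransferase gene, was 0.42 lower (adjusted p = 0.0185).

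Of 24 further oxidation genes, 3 were lower (12.5%, compared with 4.23% of all tested genes) and none was higher. Over the 24 genes, 12 differences were negative and 12 positive, with a median of -0.01. Acads, the short-chain acyl-CoA dehydrogenase gene, was lower by 0.63 (adjusted p = 0.00559). Decr1, which handles unsaturated chains in mitochondria, was lower by 0.60 (adjusted p = 0.00169), with 0.79, 0.72 and 0.76 on the knockout arrays, against 1.26, 1.37, 1.41 and 1.36 on the wild-type arrays. A second Decr1 probe, whose groups overlapped, stood at -0.10 and missed the threshold (adjusted p over probes 0.735). Acat1, a mitochondrial thiolase gene, was lower by 0.32 (adjusted p = 0.0259). None of the 12 further genes of acyl-CoA handling was called (0%, compared with 7.51% of all tested genes).

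**Figure D5:**
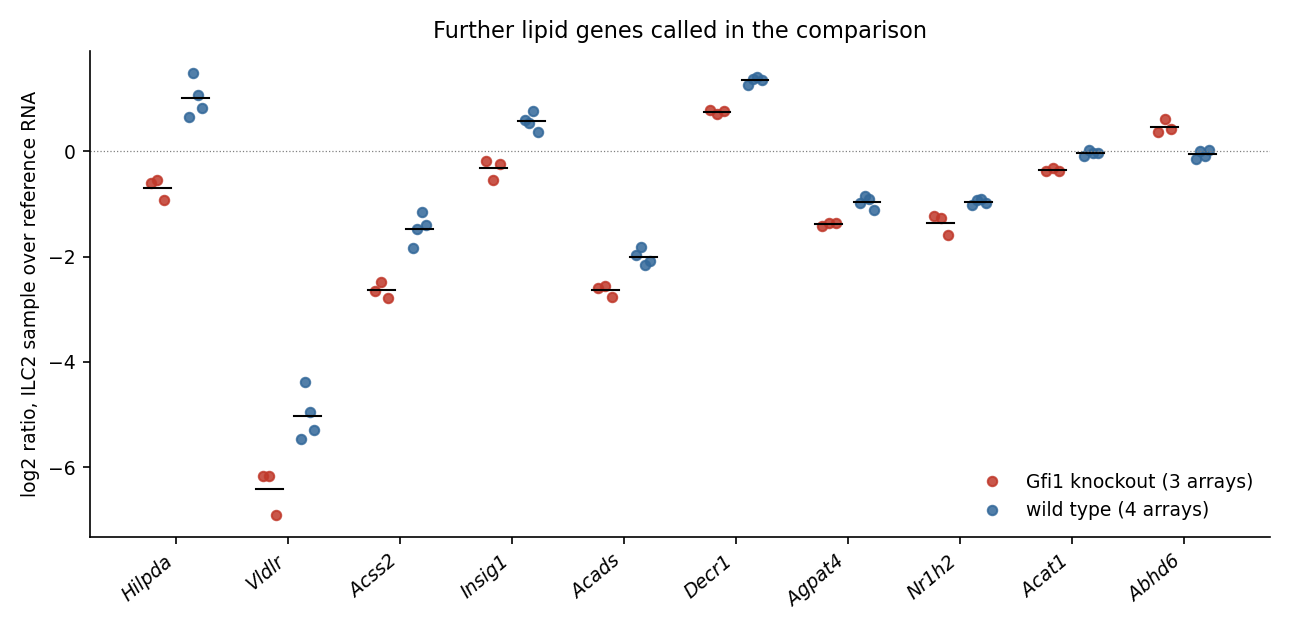
Log2 ratio of ILC2 sample over reference RNA (y axis) for 10 of the 11 called genes of the pathway outside the main set, ordered by their difference. Each point is 1 array, with Gfi1 knockout (3 arrays) left of wild type (4 arrays), and bars are group means. Hilpda shows the lowest difference with a mean of -0.69 in the knockout and 1.01 in wild type, and Abhd6 is the only one of those plotted that is higher in the knockout.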

How the data were processed

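On all 7 arrays ILC2 RNA was labelled with Cy5 (red) and Stratagene Universal Mouse Reference RNA with Cy3 (green), per the labels, with no dye swap. The deposited scanner files give the intensity of each spot in linear units. Agilent Feature Extraction 11.0.1.1 wrote them per the file headers, whereas 10.7.3.1 is named in the submitters' processing notes. That software also subtracted background, normalized the dyes and wrote a log10 ratio (red over green) for each spot, per the file headers. In the deposited value table of the series the values are log2 ratios, equal to the scanner's to within 0.001, with column medians of 0.163 to 0.254 and no further centring.

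From the median signals, 2597 flagged spots over the 7 arrays (feature outliers and uneven local background) were left out before normexp background correction (offset 50). Loess within each array followed, with control spots at weight 0 (limma 3.58.1, R 4.3.3), and spots of a probe were averaged. The offset draws ratios of dim probes towards 0. The red and green channels alone were taken after Aquantile scaling between arrays. Of the spots outside the controls, 0 were marked as saturated in the red channel.

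Of 39429 probes, 26581 were named through their accession in RefSeq genes (GRCm38.p6) and 12848 were not. The array design uses build mm9, so its coordinates are not given. Probes well above background on at least 3 arrays with at least 2 values per group were kept (30315), and the one with the highest mean red signal stood for its gene. All 42 tested members were above background on all 7 arrays on that probe. Some were dim even so, with log2 red-channel levels of 6.55 to 6.97 for Cd36 and 6.66 to 7.03 for Lipe. Groups were compared with lmFit and eBayes, adjusted over all 25368 tested genes (Benjamini-Hochberg, 0.05), with no block. This called 830 genes higher and 1074 lower.

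Slide 1 held knockout array 1 and wild-type array 4, slide 2 held knockout arrays 2 and 3 and wild-type array 1, and slide 3 held wild-type arrays 2 and 3. Slides were told apart only by the scan time in the file headers, so slide and scan name the same batch here. Slide 3 gives no value within the slide. The labels number samples within each group. Same-numbered arrays deviated from their group means with correlations of 0.036, 0.24 and 0.021 across genes, so the numbers were not taken as pairs. Each sample is labelled as a separate pool of mice. The number of arrays limits the precision. The members and the lists of further genes, markers and motifs were chosen with earlier results of these data known. All members are named. Called members are given by array, and up to 3 called genes per further list are named, except 1 that is not reported here. Figures were drawn with matplotlib 3.10.9.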

Additional observations from a re-analysis of the deposited data

Results flagged for a closer look

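A gap test for a stray array was run on the 4 wild-type values of each of 53 named genes, and chance alone would mark about 1 in 20. It marked 2. For Lpl, wild-type array 1 read -3.443, against -4.648 to -4.481 on the other wild-type arrays. Without that array the Lpl difference was 0.68 and passed the limma threshold (adjusted p = 0.0207), compared with 0.40 (adjusted p = 0.49) with all arrays. That array was the highest of its group, so leaving it out was bound to raise the difference, and the call does not test Lpl. The second Lpl probe stood at -0.02 with all arrays. For Acadm, wild-type array 3 read -0.8852, against -1.139 to -1.108 on the other wild-type arrays.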

How the results depend on the processing

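Over 27 alternatives, Scd1, Scd2, Mgll, Gpat3 and Fabp4 were called in each, with Mgll between -2.65 and -0.88 and Fabp4 between 2.37 and 3.57. Lower calls among the 42 genes numbered 8, but 5 with slide as a block and 3 with a minimum log2 change of 0.5, where Acacb, Acsl3, Acsl4, Dgat1, Plin2 and Srebf1 were lost. Over all genes these settings called 478 and 210 genes, against 1904, and leaving out knockout array 2 or wild-type array 4 called 1264 and 1268. The median difference of members (-0.103) was -0.152 in the red channel alone and -0.0353 with median centring in place of loess, which also made 55.5% of all calls higher ones, against 43.6%. Plin2 was lost in 7 of 27 alternatives. Without knockout array 3, given for its negative controls, and wild-type array 4, whose fitted background was -199 with flagged spots kept in and -4.22 without, 1137 genes were called, and 10 of the 11 members (Plin2 stood at -0.61, adjusted p = 0.107). With replicate number as a block 1082 genes were called; all 11 members stayed called, with Elovl6 and Pparg added, and not every array correlated best with its own number. Calls were added for Fads1 and Fads2 in the red channel alone, Fabp5 with slide as a random block or without knockout array 1, Fads1 without knockout array 3, Lpl without wild-type array 1, and Acaca, Agpat1, Cpt2 and Pparg with an Xist minus Ddx3y covariate. The cause of these changes was not tested.

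The sign turned only for uncalled genes near 0. It did so for Agpat2 at -0.0052 with array weights, -0.0025 with every flagged spot left out, -0.014 with no offset, -0.019 in the red channel, -0.029 with the scanner ratio and value table and -0.0043 with slide as a block. Plin3 stood at 0.0094 with array weights, 0.074 with median centring, 0.028 in the red channel, 0.013 with the scanner ratio and value table, 0.0070 with slide as a block and 0.00099 without both arrays in doubt. Fasn stood at -0.012 with the scanner ratio and value table, -0.094 with slide as a block and -0.021 without both arrays. Lpin1 stood at -0.057 with flagged spots kept, -0.038 with the replicate block, -0.0077 in the red channel and -0.080 without both arrays. Others were Acsl1 at -0.035 with the Xist covariate, Cpt1a at 0.027 and Hadhb at 0.051 with median centring, Cpt1a at 0.0045 with slide as a block, Cd36 at -0.083 with flagged spots kept, Lipe at 0.011 with the replicate block, and Elovl1 at 0.017 in the red channel. Without both arrays, Hadha stood at 0.053, Lipe at 0.017, Acadvl at -0.0073 and Agpat2 at -0.13. Leaving out 1 array gave ranges of -0.091 to 0.25 for Acsl1, -0.0016 to 0.16 for Acsl5, -0.26 to 0.0048 for Acadm, -0.15 to 0.17 for Agpat2, -0.086 to 0.20 for Fasn, -0.091 to 0.016 for Hadhb, -0.0087 to 0.13 for Acadvl, -0.20 to 0.0056 for Hadha, -0.038 to 0.11 for Lpin1, -0.11 to 0.013 for Plin3, -0.19 to 0.044 for Pnpla2, -0.099 to 0.014 for Lipe and -0.13 to 0.026 for Cpt1a.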
